A study of Mus musculus with 12 samples.

Results

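Ferroptosis is an iron-dependent form of cell death in which peroxides build up on the polyunsaturated phospholipids of membranes. Lipid peroxide defence, cystine supply, phospholipid remodelling and lipid oxidation set how far this goes, and injured kidney tubules are known to be prone to it. The genes described here are 9 of the 32047 in the count table, chosen by symbol: the defence genes Gpx4, Aifm2, Dhodh and Gch1, the transporter gene Slc3a2, the remodelling genes Acsl4 and Lpcat3, and the oxidation genes Alox15 and Ptgs2. All 9 were found.

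Messenger RNA was sequenced from 12 mouse kidney libraries in 3 groups of 4. In the group labelled AKI_A_FGF23_R176QR179Q, FGF23 with the substitutions R176Q and R179Q was overexpressed, and acute kidney injury (AKI) by rhabdomyolysis, the breakdown of skeletal muscle, followed 3 weeks later. FGF23 is a bone hormone that lowers renal phosphate reabsorption, and these 2 substitutions lie at its cleavage site. In the group labelled AKI_A_mcherry, injured kidneys carried the name of the red fluorescent protein mCherry in place of the hormone. The group labelled NC is not expanded in the labels, and it carries neither the AKI nor a construct name. These are called the FGF23 variant group, the mCherry group and NC below. The sources used here give no strain, sex, age, vector, promoter or time from injury to collection. They also do not tie libraries to separate animals, so each p-value reflects only how far these samples spread, which may be technical. An uninjured group with the variant was not analysed here, and between the mCherry group and NC the injury and the construct cannot be told apart.

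Library totals were 61687187 to 69271791 counts in the FGF23 variant group, 55324078 to 65730739 in the mCherry group and 61591826 to 70638283 in NC. Fgf23 itself, which checks the labels, reached 320 to 517 counts per FGF23 variant library and was at 0 in the other 8. No listed marker of proximal tubule, thick ascending limb or podocytes was at 0 throughout any group. Levels are given as CPM, counts per 1000000 counts of a library, scaled by a TMM factor for library composition. A gene is called higher or lower where the adjusted p of edgeR's quasi-likelihood test was under 0.05 over all genes tested. Differences written with ± and an SE are log2 fold changes. The 3 comparisons share libraries, with each group entering 2 of them, so their changes are not independent of each other.

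In mCherry kidneys, 4 of the 9 genes were higher than in NC: Ptgs2, Gch1, Acsl4 and Slc3a2. Dhodh was lower by a small amount, Gpx4, Aifm2 and Lpcat3 did not pass the test, and Alox15 had too few counts to be tested. With the FGF23 variant, Gch1, Ptgs2, Acsl4 and Aifm2 were lower than in the mCherry group, while Slc3a2 was higher again. The calls in mCherry kidneys against NC were 5 of 8 genes tested, where 53.1% of all 18724 genes were called, and the same 5 had libraries that did not overlap between groups, as 51.5% of all genes did. For the FGF23 variant group against the mCherry group they were 5 of 8, where 23.1% of 18824 genes were called, and 5 did not overlap, against 28.4% of all genes. For the FGF23 variant group against NC they were 6 of 9, where 42.3% of 19005 genes were called, and 6 did not overlap, against 41.6% of all genes. A share of members near that of all genes is no result about the members. The members were also chosen with earlier results of these data known, so a share or median apart from that of all genes is no test of them. The median log2 fold change of the tested members was 0.57, -0.28 and -0.09 in these 3 comparisons, against -0.0026, 0.0084 and 0.0109 over all genes tested.

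**Figure D1:**
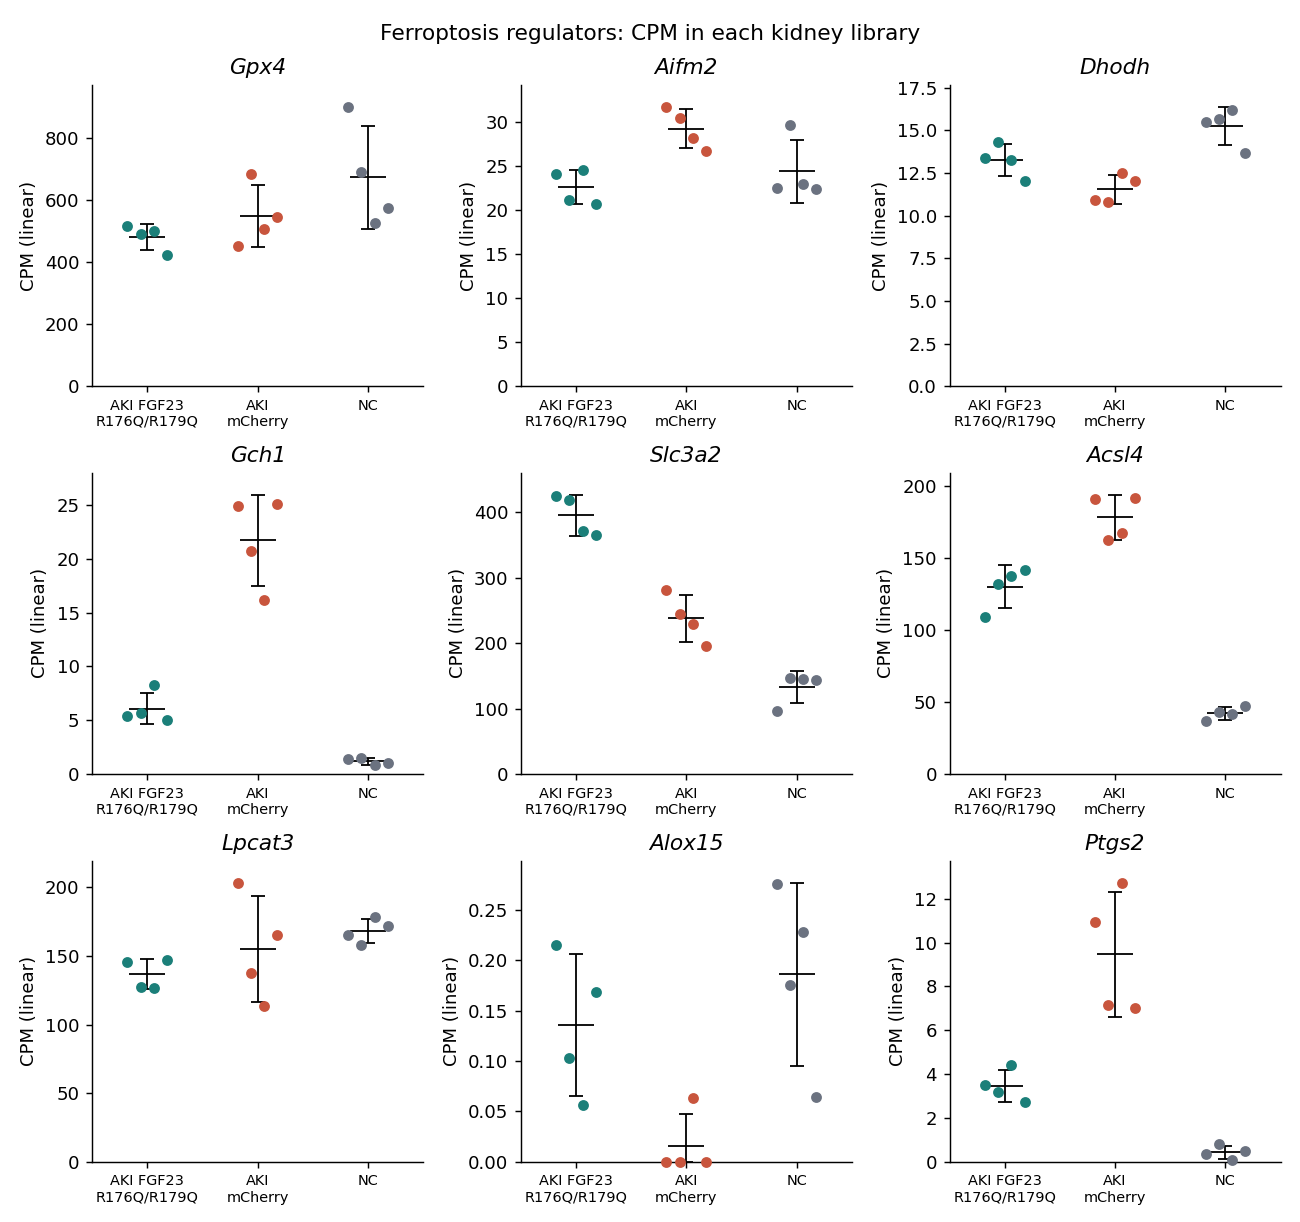
CPM (linear axis from 0) of each of the 9 genes in the FGF23 variant group, the mCherry group and NC; each point is 1 library, the line is the mean and the bar the SD of 4 libraries. For Gch1, Ptgs2 and Acsl4 the 4 mCherry libraries sit above all others, and for Slc3a2 the 4 FGF23 variant libraries do.

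The promoters of the 4 genes that were higher in both injured groups are printed below, since these are the members called higher than NC in both comparisons. Each is the RefSeq window of build GRCm38.p6 from 250 bases before to 50 after the gene's start, 5′ to 3′ along the gene. RefSeq windows were found for 7 of the 9 members, and capitals mark every match on either strand to the motifs searched.
Gch1, chr14:47189364-47189663, strand -: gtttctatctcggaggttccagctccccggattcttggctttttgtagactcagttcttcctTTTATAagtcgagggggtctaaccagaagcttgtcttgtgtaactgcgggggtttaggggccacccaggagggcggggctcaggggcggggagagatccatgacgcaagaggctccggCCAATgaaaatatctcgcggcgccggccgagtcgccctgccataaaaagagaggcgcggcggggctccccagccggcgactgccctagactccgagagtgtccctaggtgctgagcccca
Ptgs2, chr1:150099781-150100080, strand +: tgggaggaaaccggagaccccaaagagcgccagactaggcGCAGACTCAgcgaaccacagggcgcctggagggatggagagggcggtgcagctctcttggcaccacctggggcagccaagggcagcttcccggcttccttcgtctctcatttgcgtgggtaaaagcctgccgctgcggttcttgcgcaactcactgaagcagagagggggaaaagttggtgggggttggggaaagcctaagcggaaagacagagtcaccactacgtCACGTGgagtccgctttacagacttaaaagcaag
Acsl4, chrX:142390486-142390785, strand -: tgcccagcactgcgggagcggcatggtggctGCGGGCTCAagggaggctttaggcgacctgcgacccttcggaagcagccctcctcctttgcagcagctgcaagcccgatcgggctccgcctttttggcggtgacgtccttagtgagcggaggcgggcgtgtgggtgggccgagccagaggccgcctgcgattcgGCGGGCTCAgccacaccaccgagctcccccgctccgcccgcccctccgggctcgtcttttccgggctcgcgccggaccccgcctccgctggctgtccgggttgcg
Slc3a2, chr19:8713848-8714147, strand -: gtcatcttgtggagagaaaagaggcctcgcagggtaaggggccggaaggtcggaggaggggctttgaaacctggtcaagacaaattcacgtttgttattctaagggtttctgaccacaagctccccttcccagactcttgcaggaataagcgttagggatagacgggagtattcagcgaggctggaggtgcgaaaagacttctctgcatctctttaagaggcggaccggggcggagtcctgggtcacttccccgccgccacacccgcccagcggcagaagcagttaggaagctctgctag

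The motifs were the antioxidant response element core TGANNNNGC, the AP-1 site TGANTCA, the cyclic AMP response element TGACGTCA, the C/EBP-ATF element TGATGNAA, the TATA box TATAAA, the E-box CACGTG and the CCAAT box. The antioxidant pattern can overlap the AP-1 pattern, but no matches overlapped in these windows. Acsl4 held the antioxidant core at -219 and -55 and Ptgs2 held it at -210, all on the reverse strand, a pattern found in 41.3% of 32851 promoter windows. Ptgs2 also held the E-box at 17 (7.15% of windows). Gch1 held the TATA letters in reverse at -188 (13.6%) and a CCAAT box at -70 (37.4%). The Slc3a2 window held no match, which says only that these letters are not in it. The AP-1, cyclic AMP and C/EBP-ATF letters, in 7.81%, 1.79% and 3.97% of windows, were in none of the 4. The matches are letters in a sequence and were not tested as binding sites.

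Gpx4 (ENSMUSG00000075706) encodes the selenoenzyme that reduces phospholipid hydroperoxides with glutathione. It had 516, 490.3, 499 and 422 CPM in the FGF23 variant group, 452, 686, 508 and 545 CPM in the mCherry group, and 899, 692, 527 and 574 CPM in NC. The mCherry libraries overlapped both other groups, and NC held the widest range, while every FGF23 variant library was below every NC library. The difference of the mCherry group from NC was -0.27 ± 0.19 (SE, edgeR adjusted p = 0.238), and that of the FGF23 variant group from the mCherry group -0.18 ± 0.13 (adjusted p = 0.357). Against NC, the FGF23 variant group was lower by the test (-0.46 ± 0.15, edgeR adjusted p = 0.0341). That call was lost without replicate 2, 3 or 5 of the FGF23 variant group (-0.47, -0.48 and -0.40; adjusted p = 0.0679, 0.0614 and 0.0926) and without replicate 1 or 2 of NC (-0.30 and -0.45; adjusted p = 0.0605 and 0.072). It was lost too with no filter on low counts (adjusted p = 0.0709) and when scaled by library totals alone (-0.13, adjusted p = 0.507).

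Gpx4-ps2, a transcribed processed pseudogene of Gpx4, was counted separately at 124 to 153 CPM in the FGF23 variant group, 129 to 169 CPM in the mCherry group and 154 to 264 CPM in NC. Reads of near-identical copies may have been split between them, so the single level of each is uncertain. With both summed, Gpx4 stayed on the same side of the threshold in the 3 comparisons, at -0.15 for the FGF23 variant group against the mCherry group (edgeR adjusted p = 0.447), -0.46 for the FGF23 variant group against NC (0.0355) and -0.31 for the mCherry group against NC (0.18).

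Aifm2 (ENSMUSG00000020085) encodes FSP1, which keeps coenzyme Q and vitamin K reduced in membranes outside mitochondria. It had 24.03, 21.2, 24.5 and 20.6 CPM in the FGF23 variant group, 31.6, 30.5, 28.1 and 26.6 CPM in the mCherry group, and 22.5, 29.6, 22.9 and 22.3 CPM in NC. All mCherry libraries were above all FGF23 variant libraries, and 1 NC library reached into the mCherry range. With the variant the level was lower than in the mCherry group (-0.37 ± 0.10, edgeR adjusted p = 0.0265). The call was lost without replicate 2 or 5 of the FGF23 variant group (-0.34 and -0.33; adjusted p = 0.0773 and 0.0794), without replicate 1 or 2 of the mCherry group (-0.33 and -0.34; 0.061 and 0.052), and when scaled by library totals alone (-0.16, 0.269). Against NC, the mCherry group stood at 0.28 ± 0.12 (edgeR adjusted p = 0.0681), which passed without NC replicate 2 (0.39, 0.0146) and when scaled by library totals alone (0.40, 0.0199). The FGF23 variant group did not pass against NC (-0.09 ± 0.11, edgeR adjusted p = 0.565), with the sign turned to 0.24 by library totals alone and to 0.01 without NC replicate 2. The gene overlaps H2afy2 on the other strand, at 7.81 to 12.1 CPM over all libraries, and the sources used here do not say whether counting used strand.

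Dhodh (ENSMUSG00000031730) encodes dihydroorotate dehydrogenase, an enzyme of pyrimidine synthesis in the inner mitochondrial membrane that also reduces coenzyme Q. Its CPM was 13.4, 14.3, 13.3 and 12.03 in the FGF23 variant group, 10.9, 10.8, 12.49 and 12.04 in the mCherry group, and 15.5, 15.7, 16.2 and 13.7 in NC. All mCherry libraries were below all NC libraries, and the FGF23 variant libraries overlapped both. The mCherry group was lower than NC (-0.38 ± 0.11, edgeR adjusted p = 0.0162), a call lost when scaled by library totals alone (-0.25, adjusted p = 0.134). For the FGF23 variant group the difference was 0.20 ± 0.11 against the mCherry group (edgeR adjusted p = 0.223; 0.0412 by library totals alone) and -0.19 ± 0.10 against NC (0.158), where the sign turned to 0.15 by library totals alone.

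Gch1 (ENSMUSG00000037580) encodes GTP cyclohydrolase, the first and rate-limiting enzyme on the way to tetrahydrobiopterin, a cofactor that also traps lipid radicals. It had 5.40, 5.67, 8.24 and 5.04 CPM in the FGF23 variant group, 24.9, 20.7, 16.2 and 25.1 CPM in the mCherry group, and 1.36, 1.47, 0.850 and 0.998 CPM in NC. The 3 groups did not overlap, with the mCherry group highest and NC lowest. The mCherry group was 18.9-fold higher than NC (4.24 ± 0.23, edgeR adjusted p = 2.33e-07). Gch1 in the FGF23 variant group was 3.56-fold lower than in the mCherry group (-1.83 ± 0.20, edgeR adjusted p = 5.43e-04) and 5.27-fold higher than NC (2.40 ± 0.24, adjusted p = 3.11e-05).

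Slc3a2 (ENSMUSG00000010095) encodes the heavy chain of several amino acid transporters, among them system xc-, which it forms with SLC7A11 and which imports cystine for glutathione. It had 426, 418, 371 and 366 CPM in the FGF23 variant group, 281, 245, 229 and 196 CPM in the mCherry group, and 96.2, 147, 145 and 144 CPM in NC. The 3 groups again did not overlap, but here the FGF23 variant group was highest. Slc3a2 in the FGF23 variant group was 1.67-fold higher than in the mCherry group (0.74 ± 0.12, edgeR adjusted p = 0.0034) and 3.01-fold higher than NC (1.59 ± 0.14, adjusted p = 1.07e-05). The mCherry group was 1.81-fold higher than NC (0.86 ± 0.16, adjusted p = 9.80e-04).

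Acsl4 (ENSMUSG00000031278) encodes the acyl-CoA synthetase that activates arachidonic and adrenic acid, and cells without it resist ferroptosis. It had 109, 132, 138 and 142 CPM in the FGF23 variant group, 191, 163, 167 and 192 CPM in the mCherry group, and 36.8, 43.2, 41.3 and 47.5 CPM in NC. The groups did not overlap, and both injured groups were far above NC. The mCherry group was 4.29-fold higher than NC (2.10 ± 0.11, edgeR adjusted p = 1.86e-07), and the FGF23 variant group 3.12-fold higher than NC (1.64 ± 0.11, adjusted p = 2.16e-06). Acsl4 in the FGF23 variant group was 1.37-fold lower than in the mCherry group (-0.45 ± 0.11, edgeR adjusted p = 0.0166), a call lost when scaled by library totals alone (-0.25, adjusted p = 0.155).

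Lpcat3 (ENSMUSG00000004270) encodes the acyltransferase that places such fatty acids into membrane phospholipids. It had 145, 128, 127 and 147 CPM in the FGF23 variant group, 203, 138, 114 and 165 CPM in the mCherry group, and 166, 158, 178 and 172 CPM in NC. The mCherry libraries spanned the range of both other groups, and every FGF23 variant library was below every NC library. The mCherry group did not pass against NC (-0.10 ± 0.16, edgeR adjusted p = 0.629), nor did the FGF23 variant group against the mCherry group (-0.18 ± 0.16, adjusted p = 0.451), and both signs turned by library totals alone (0.03 and 0.03). Against NC, Lpcat3 was lower in the FGF23 variant group (-0.28 ± 0.08, edgeR adjusted p = 0.0199), although the sign turned when scaled by library totals alone (0.05, adjusted p = 0.642). That call was lost without replicate 2 or 3 of the FGF23 variant group (-0.25 each; adjusted p = 0.0612 and 0.0586), without NC replicate 3 (-0.25, 0.0543) and with all 12 libraries in 1 fit (-0.30, 0.119). Lpcat3 overlaps Emg1 on the other strand, which spanned 36.4 to 51.9 CPM in the FGF23 variant group, 53.8 to 67.4 CPM in the mCherry group and 30.4 to 38.3 CPM in NC.

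Ptgs2 (ENSMUSG00000032487) encodes cyclooxygenase-2, the inducible enzyme of prostaglandin synthesis, whose transcript is widely used as a marker of ferroptosis although many other stimuli induce it. It had 276, 248, 315 and 194 counts in the FGF23 variant group, 624, 358, 804 and 472 counts in the mCherry group, and 19, 46, 4 and 31 counts in NC. In CPM these were 3.50, 3.19, 4.43 and 2.72 in the FGF23 variant group, 10.9, 7.16, 12.7 and 7.02 in the mCherry group, and 0.349, 0.807, 0.0654 and 0.499 in NC. The groups did not overlap, and the low NC counts make the folds against NC imprecise. The mCherry group was 22.2-fold higher than NC (4.47 ± 0.54, edgeR adjusted p = 5.41e-05). Ptgs2 in the FGF23 variant group was 2.73-fold lower than in the mCherry group (-1.45 ± 0.24, edgeR adjusted p = 0.00357) and 8.14-fold higher than NC (3.03 ± 0.52, adjusted p = 8.99e-04).

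Alox15 (ENSMUSG00000018924) encodes the mouse 12/15-lipoxygenase, which can oxidise phospholipids directly. It had 17, 8, 4 and 12 counts in the FGF23 variant group, 0, 0, 4 and 0 counts in the mCherry group, and 15, 10, 14 and 4 counts in NC. The gene was close to the detection limit in every group, and lowest in the mCherry group. A count of 0 allows up to a nominal 3 counts, or 0.0526, 0.060 and 0.0446 CPM in replicates 1, 2 and 4 of the mCherry group. This covers counting error only, and a single event may add more than 1 count, since a count of 4 occurred 11995 times in the table against 5847 times for 3 and 3638 for 5. The low-count filter removed Alox15 from both comparisons with the mCherry group. With DESeq2 the mCherry group was at -3.51 ± 1.42 against NC (adjusted p = 0.0321). For the same difference edgeR without the filter gave -3.35 ± 1.31 (adjusted p = 0.0787) and with all 12 libraries in 1 fit -3.34 ± 1.04 (0.0145). The mCherry group had counts in 1 library alone, 4 in all. These fits therefore rest on the counts of the other groups and are not read as results. Without mCherry replicate 3, the only mCherry library with counts, the mCherry group was at 0 throughout. The filter then kept the gene through its NC counts alone, so the difference in that fit was set by the omission and is not read as a result. Without mCherry replicate 1 or 2 the gene was also kept, by its NC counts, and did not pass (-2.96 and -3.00, edgeR adjusted p = 0.0597 and 0.0541). These fits are not read as results either. For the FGF23 variant group against the mCherry group DESeq2 gave 3.08 ± 1.46 (adjusted p = 0.109) and edgeR without the filter 2.94 ± 1.32 (adjusted p = 0.196). With all 12 libraries in 1 fit edgeR gave 2.90 ± 1.04 (adjusted p = 0.0552), so none of these passed. Against NC the FGF23 variant group was tested and did not pass (-0.42 ± 0.62, edgeR adjusted p = 0.621). Markers of eosinophils, cells that carry much of this enzyme, summed to at most 0.279 CPM in any library over the 3 found, with Prg2 at 0 throughout the mCherry group and Siglecf throughout NC, and none of the 3 was tested.

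**Figure D2:**
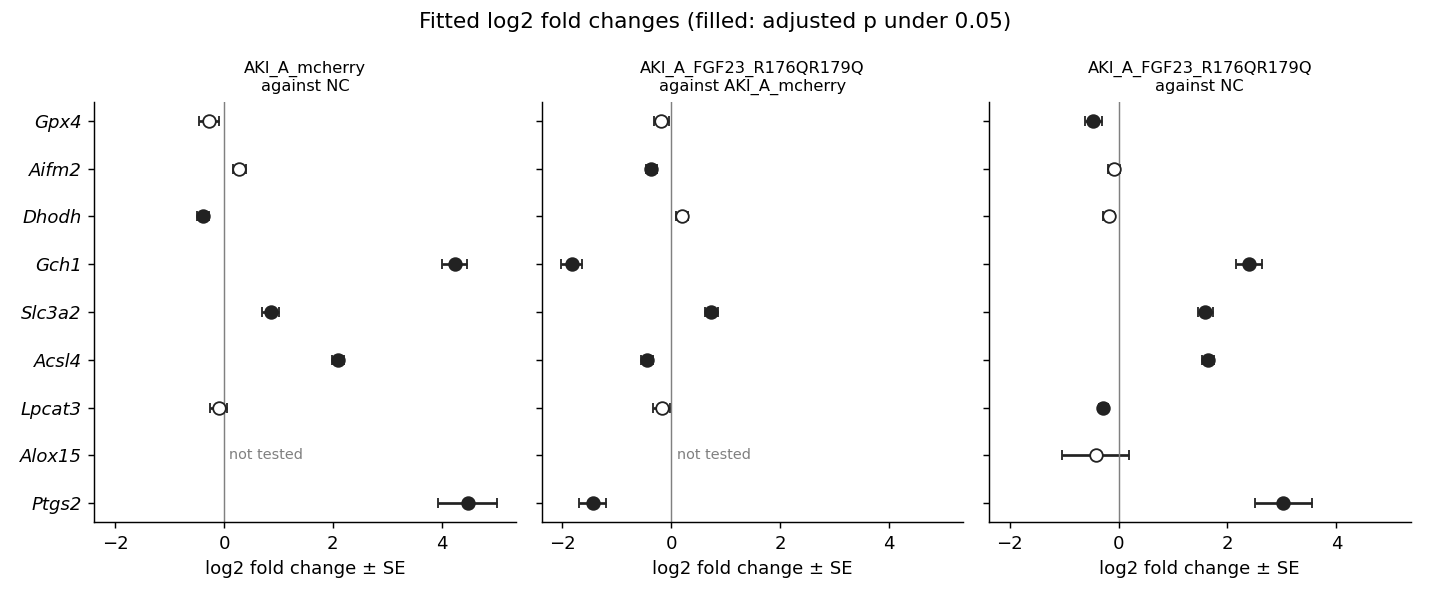
Log2 fold change (points) with SE (bars) of each gene in the 3 comparisons; filled points have an edgeR adjusted p under 0.05, and Alox15 was not tested in both comparisons with the mCherry group. Gch1 and Ptgs2 lie above 4 for mCherry against NC and below -1 for the FGF23 variant group against the mCherry group.

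The groups also differed in cell markers, and in bulk tissue fewer cells of a type and less RNA per cell cannot be told apart. The 6 markers of injured proximal tubule summed to 6280 to 23390 CPM in the FGF23 variant group, 31230 to 34470 CPM in the mCherry group and 649 to 809 CPM in NC. They moved with Gch1, Acsl4 and Ptgs2: 5 of 6 were higher in the mCherry group than in NC, and 5 of 6 lower in the FGF23 variant group than in the mCherry group. The 8 markers of proximal tubule segments S1 and S2 summed to 1153 to 2728 CPM in the FGF23 variant group, 843 to 1202 CPM in the mCherry group and 6929 to 10970 CPM in NC, and 4 of the 8 passed as higher in FGF23 variant kidneys than in mCherry kidneys. The 5 thick ascending limb markers summed to 5073 to 7577 CPM in the FGF23 variant group, 3076 to 3494 CPM in the mCherry group and 7528 to 10230 CPM in NC. Ptgs2 is normally made in the macula densa, whose 4 listed markers summed to 12.3 to 16.7 CPM in the FGF23 variant group, 10.6 to 15.8 CPM in the mCherry group and 9.07 to 13.5 CPM in NC. Of these 4 markers, 1 was higher and 1 lower in the mCherry group than in NC. Again 1 was higher and 1 lower in the FGF23 variant group than in the mCherry group, so the sum hides opposite changes. Ptgs2 is also made by leukocytes: the 5 neutrophil markers summed to 1.86 to 6.14 CPM in the FGF23 variant group, 3.06 to 10.4 CPM in the mCherry group and 0.735 to 1.42 CPM in NC. The 7 markers of macrophages and monocytes summed to 95.0 to 134 CPM with the variant, 104 to 248.8 CPM with mCherry and 127 to 182 CPM in NC. Of the neutrophil markers 5 of 5 were higher in the mCherry group than in NC, where 27.2% of all genes were higher. For the FGF23 variant group against the mCherry group 0 of 5 were called. Of the 7 macrophage and monocyte markers, 2 were higher and 2 lower in the mCherry group than in NC. With the variant, 1 was higher and 2 lower than in the mCherry group. The part of these cells in the results was not tested.

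Compared per length, by the FPKM the authors deposited, Gpx4 was the most abundant member in every library, at 258 to 314 FPKM in the FGF23 variant group, 241 to 328 FPKM in the mCherry group and 254 to 426 FPKM in NC. FPKM carry no composition factor, so only the order within a library is read from them. In the FGF23 variant group the order of mean level was Gpx4, Slc3a2 (117 FPKM), Lpcat3 (43.7), Acsl4 (25.2), Aifm2 (5.72), Dhodh (2.18), Gch1 (1.01), Ptgs2 (0.787) and Alox15 (0.055). This order held within every library of the group. Between libraries, only the ranges of Gch1 and Ptgs2 overlapped as neighbours. In the mCherry group Slc3a2 (60.7 FPKM), Lpcat3 (42.9) and Acsl4 (29.9) kept this order within every library, although their ranges between libraries overlapped as neighbours. The ranges of Gch1 (3.14), Ptgs2 (1.88) and Dhodh (1.65) overlapped too. Within libraries, Ptgs2 stood above Gch1 in mCherry replicate 3 and below Dhodh in mCherry replicates 2 and 4. In NC Lpcat3 (42.4 FPKM) stood above Slc3a2 (31.0). Acsl4 (6.42) stood above Aifm2 (4.86) within every NC library, with ranges that overlapped between libraries. There Gch1 (0.152), Ptgs2 (0.075) and Alox15 (0.060) made up the low end, the range of each overlapping the next. Within libraries, Gch1 stood above Ptgs2 in all of NC, while Ptgs2 was below Alox15 in NC replicates 1 and 3. Gch1 thus stood above Dhodh in the mCherry group and below it in the FGF23 variant group and NC.

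**Figure D3:**
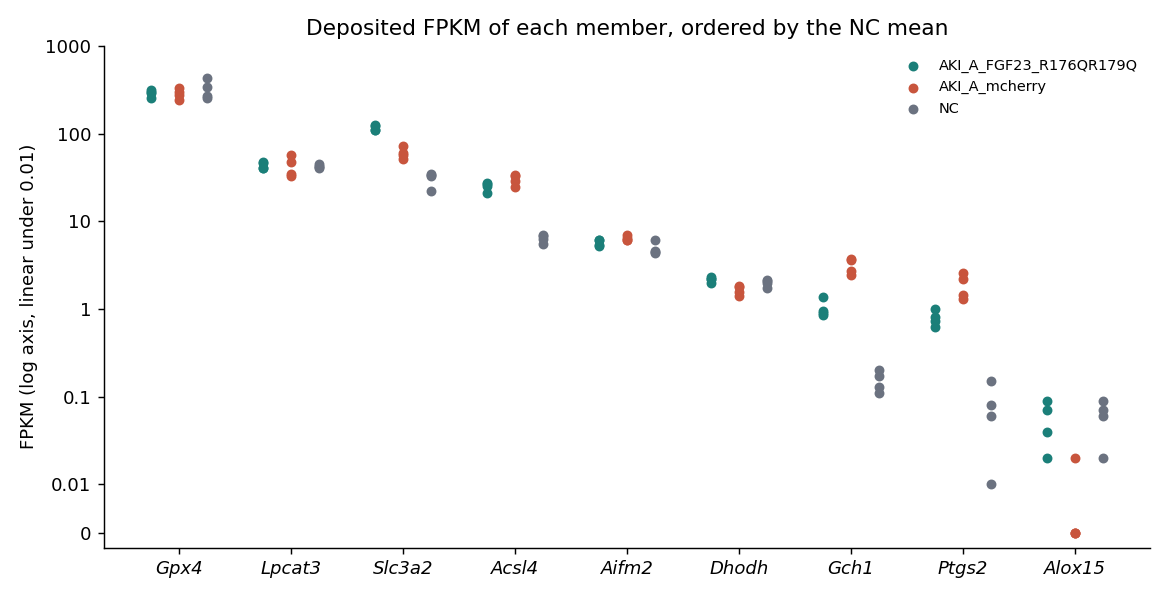
Deposited FPKM (log axis, linear under 0.01) of each gene in every library of the FGF23 variant group, the mCherry group and NC, ordered by the NC mean. Gpx4 lies between 241 and 426 in all 12 libraries, while Gch1 lies above Dhodh in the 4 mCherry libraries and below it in the other 8.

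Other genes of the same pathways were read from 10 lists with 90 genes, of which the mCherry group had 25 higher and 38 lower than NC among 87 tested, and the FGF23 variant group 23 higher and 12 lower than the mCherry group among 88 tested. Over all genes, 27.2% were higher and 26.0% lower in mCherry against NC, and 11.7% were higher and 11.4% lower in the FGF23 variant group against the mCherry group. The FGF23 variant group had 26 higher and 35 lower than NC among 87 tested, against 21.7% and 20.6% of all genes.

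In glutathione and cystine supply, 4 of 11 genes were higher and 5 lower in the mCherry group than in NC, and 3 were higher and 1 lower in the FGF23 variant group than in the mCherry group. Slc7a11, the light chain of system xc-, had the pattern of Slc3a2 at a larger size. It averaged 60.1 ± 9.37 CPM in the FGF23 variant group, 27.1 ± 4.15 CPM in the mCherry group and 0.156 ± 0.0896 CPM in NC (SD, n = 4 each). In the FGF23 variant group Slc7a11 stood 2.22-fold above the mCherry group (edgeR adjusted p = 8.27e-04), and the mCherry group was 175.7-fold higher than NC (1.01e-07), a fold that rests on few NC counts. Txnrd1, the cytosolic thioredoxin reductase, was 3.40-fold higher in the mCherry group than in NC, at 577 ± 46.2 against 171.9 ± 10.95 CPM (edgeR adjusted p = 2.64e-07). Gpx1, the cytosolic glutathione peroxidase, was 1.69-fold lower in the FGF23 variant group than in the mCherry group, at 486 ± 47.5 against 825 ± 104 CPM (edgeR adjusted p = 0.0027).

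Of the 5 other light chains that pair with SLC3A2, 4 were tested, with 2 higher and 2 lower in the mCherry group than in NC, and 2 higher and 0 lower with the variant than with mCherry (edgeR; 2 of the 4 had an unadjusted p under 0.05). Slc7a5, of the LAT1 transporter of large neutral amino acids, averaged 27.6 ± 3.99 CPM in the FGF23 variant group, 27.9 ± 2.08 CPM in the mCherry group and 3.55 ± 0.249 CPM in NC. Slc7a7 and Slc7a8, of basolateral transporters of the proximal tubule, were lower in the mCherry group than in NC and were called higher with the variant than with mCherry. Slc7a7 had 71.9 ± 8.57 CPM in the FGF23 variant group, 37.4 ± 3.21 CPM in the mCherry group and 134 ± 36.2 CPM in NC. Slc7a8 had 76.3 ± 16.9 CPM in the FGF23 variant group, 43.1 ± 10.2 CPM in the mCherry group and 115.6 ± 46.3 CPM in NC. Slc7a5, in contrast to Slc7a11, did not pass between the injured groups (-0.01, edgeR adjusted p = 0.958).

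While Gch1 was higher in the mCherry group than in NC, the other genes of its pathway were lower or did not pass. Of the 6 tetrahydrobiopterin genes listed beside it, 0 were higher and 5 lower in the mCherry group than in NC (edgeR; the sixth, Spr, was at -0.09, adjusted p = 0.644). Qdpr, which regenerates tetrahydrobiopterin, had 118 ± 22.8 CPM in the FGF23 variant group, 90.0 ± 3.63 CPM in the mCherry group and 274 ± 21.8 CPM in NC. Pcbd1, which recycles the used cofactor, had 76.5 ± 11.8 CPM in the FGF23 variant group, 78.5 ± 14.9 CPM in the mCherry group and 186 ± 26.1 CPM in NC. With the variant, 1 was higher (Qdpr, edgeR adjusted p = 0.0484) and 1 lower (Spr, 0.0493) than in the mCherry group, and all 6 were lower than in NC.

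**Figure D4:**
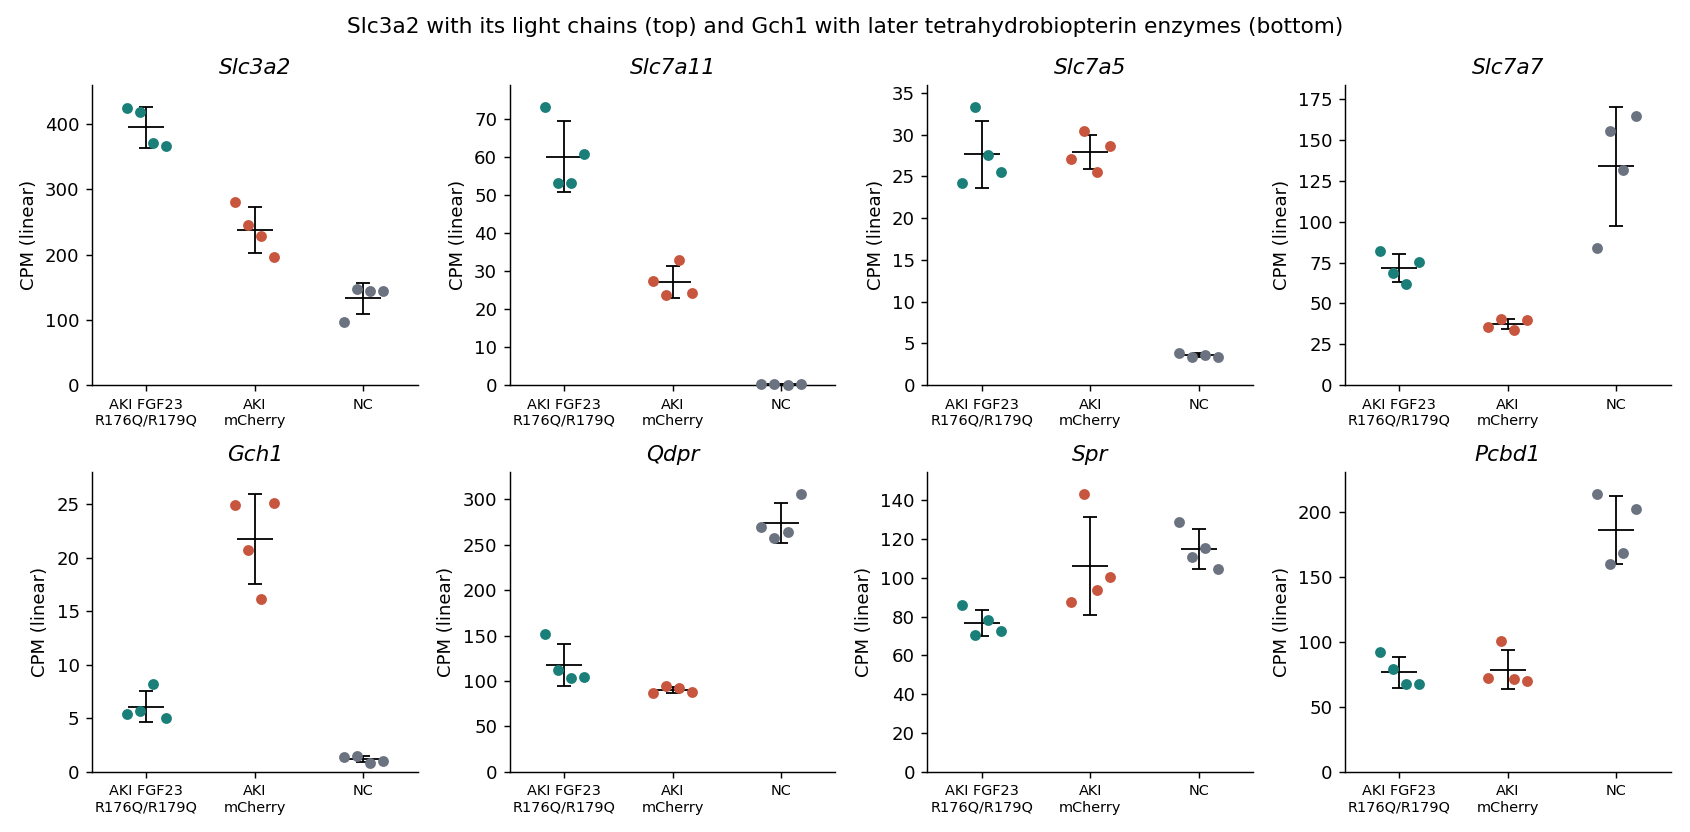
CPM (linear axis from 0) of Slc3a2 and 3 light chains (top) and of Gch1 and 3 later tetrahydrobiopterin genes (bottom) by group; points are libraries, lines means and bars the SD of 4. Slc3a2 and Slc7a11 are highest in the FGF23 variant group, whereas Qdpr and Pcbd1 are highest in NC, opposite to Gch1, and the 4 Spr libraries with the variant average 76.7, against 106 with mCherry.

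Selenoprotein synthesis, on which GPX4 depends, had 1 higher and 3 lower of 7 in the mCherry group against NC, with Sephs2, of selenophosphate synthesis, at 133 ± 28.9 against 381 ± 32.4 CPM. In the FGF23 variant group against the mCherry group it had 2 higher and 1 lower, with Sepsecs, which makes selenocysteinyl-tRNA, at 37.5 ± 6.83 against 26.5 ± 4.28 CPM (edgeR adjusted p = 0.0406). The lower one was Trnau1ap, which assists selenocysteine tRNA, 1.63-fold lower at 32.6 ± 2.13 against 53.1 ± 5.27 CPM (edgeR adjusted p = 0.00151). Coenzyme Q and vitamin K quinone genes had 2 higher and 6 lower of 11 in the mCherry group against NC. Coq8a, a kinase-like coenzyme Q factor, averaged 51.8 ± 8.23 CPM in the FGF23 variant group, 24.4 ± 5.06 CPM in the mCherry group and 155 ± 22.2 CPM in NC. Of these 11, 3 were higher and 1 lower in the FGF23 variant group than in the mCherry group. Of the pyrimidine synthesis genes Cad and Umps, Cad was higher in the mCherry group than in NC at 28.5 ± 3.83 against 10.9 ± 1.37 CPM (edgeR adjusted p = 1.37e-05), opposite to Dhodh, and in the FGF23 variant group against the mCherry group Cad was at 0.24 (adjusted p = 0.151) and Umps at 0.03 (0.839).

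Beside Acsl4 and Lpcat3, acyl-CoA and phospholipid genes had 5 higher and 8 lower of 17 in the mCherry group against NC, and 6 higher and 2 lower in the FGF23 variant group against the mCherry group. Fads2, the desaturase that starts the synthesis of long polyunsaturated fatty acids, had 90.2 ± 24.4 CPM in the FGF23 variant group, 31.2 ± 5.61 CPM in the mCherry group and 186 ± 16.5 CPM in NC. Mboat1, which favours monounsaturated phospholipids and is known to protect cells from ferroptosis, was 3.28-fold higher in the mCherry group than in NC (20.65 ± 2.16 against 6.38 ± 0.362 CPM, edgeR adjusted p = 1.33e-06).

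Beside Alox15, lipid oxidation enzymes had 3 higher and 1 lower of 7 tested in the mCherry group against NC and 1 higher and 1 lower of 8 tested in the FGF23 variant group against the mCherry group. Cyb5r1, a reductase that can feed peroxidation, averaged 75.4 ± 10.5 CPM in the FGF23 variant group, 44.5 ± 3.50 CPM in the mCherry group and 24.9 ± 1.06 CPM in NC, the same order of groups as Slc3a2. Por, the cytochrome P450 reductase that can also feed peroxidation, was 1.63-fold lower in the mCherry group than in NC, at 225 ± 24.4 against 373 ± 31.1 CPM (edgeR adjusted p = 3.41e-04). Pebp1, a scaffold protein that can bind 15-lipoxygenase, was 1.32-fold lower in the FGF23 variant group than in the mCherry group, at 261 ± 20.6 against 344 ± 40.1 CPM (edgeR adjusted p = 0.0258). Prostanoid genes around Ptgs2 had 3 higher and 4 lower of 12 in the mCherry group against NC. Hpgd, which inactivates prostaglandins, was 5.41-fold lower there, at 2.90 ± 0.708 against 15.9 ± 1.30 CPM (edgeR adjusted p = 2.08e-06), and Ptger4, a prostaglandin E2 receptor, 3.78-fold higher, at 15.6 ± 1.63 against 4.18 ± 1.05 CPM (1.51e-05). In the FGF23 variant group against the mCherry group the list had 3 higher and 2 lower. Ptger3, another such receptor, averaged 60.6 ± 10.8 CPM with the variant and 22.0 ± 2.70 CPM with mCherry (edgeR adjusted p = 3.33e-04), and Ptger4 averaged 9.41 ± 1.85 against 15.6 ± 1.63 CPM (0.0119).

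Iron supply had 4 higher and 4 lower of 10 in the mCherry group against NC, and 2 higher and 3 lower in the FGF23 variant group against the mCherry group. Ftl1, the ferritin light chain, averaged 2760.0 ± 146 CPM in the FGF23 variant group, 6462 ± 1028 CPM in the mCherry group and 2313 ± 260 CPM in NC. Hmox1, which frees iron from heme, averaged 202 ± 33.0 CPM in the FGF23 variant group, 668 ± 187 CPM in the mCherry group and 31.8 ± 2.91 CPM in NC. Both fell in the FGF23 variant group relative to the mCherry group (edgeR adjusted p = 5.43e-04 for Ftl1 and 8.69e-04 for Hmox1).

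The genes with the most similar profile were found by the root mean square difference of log2(CPM + 1), each centred on its own mean, over the 12 libraries and 11036 candidates of at least 5 CPM. For Gch1 they were Ankrd1 (difference 0.237) and Hk2 (0.265), where Gch1 itself varied with an SD of 1.46. For Acsl4 they were Homer3 (0.139) and Tmem43 (0.144), with an SD of 0.93 for Acsl4. Slc3a2 was closest to Trim46 and Cyb5r1 (0.226 each, SD 0.705). The profiles of the other members varied less, so a small difference sets them apart less: Gpx4 (SD 0.303) was closest to its copy Gpx4-ps2 (0.087) and to Ndufb8 (0.0906), Aifm2 (SD 0.205) to Orc5 and Tsfm (0.0953 and 0.0982), Dhodh (SD 0.182) to Zfp422 and Sun2 (0.0551 and 0.066), and Lpcat3 (SD 0.237) to Tlk1 and Snap29 (0.11 each). Ptgs2 and Alox15 were below 5 CPM on average and were not compared.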

How the data were processed

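Kidney RNA was taken up in TRIzol, selected by poly(A) and made into strand-marked (dUTP) libraries read in pairs, per the labels' protocols. fastp, StringTie, edgeR and build GRCm39 appear in the submitters' processing notes, while the sources used here name no aligner, annotation or counting options. Per the file headers, the authors deposited a count and an FPKM value per gene and library for 32047 genes, of which 31942 IDs matched a symbol. Deposited counts went into all tests, and deposited FPKM only ordered genes within a library. Reads carry no molecular identifiers.

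The 8 libraries of each comparison were fitted apart with edgeR 4.0.16 in R 4.3.3 (TMM, filterByExpr, quasi-likelihood test, Benjamini-Hochberg adjustment over all genes, calls at 0.05). The fit was checked on simulated data, with far fewer changed genes than were called here. It recovered 7.58% to 23.9% of 1.5-fold, 50% to 56.5% of 2-fold and 84.1% to 87.9% of 4-fold changes, with 3 to 8 false calls. A gene that did not pass is therefore not shown to be unchanged. TMM factors over the 12 libraries were 1.12 to 1.15 for the FGF23 variant, 0.903 to 1.02 for mCherry and 0.879 to 0.911 for NC. Alternatives were other normalization factors (RLE, upper quartile, library totals), other filters (none, or at least 5 CPM on average), DESeq2 1.42.0, limma-voom 3.58.1, 1 fit of all 12 libraries, a block for the replicate number, and each library left out. Summing Gpx4 with Gpx4-ps2 was chosen after seeing the data. Pathway genes are named from up to 2 per list and comparison, those of smallest adjusted p among called genes of at least 1 CPM. One gene named by this rule is not reported here. The members, the lists and this rule were chosen with earlier results of these data known.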

Additional observations from a re-analysis of the deposited data

Results flagged for a closer look

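In 27 groups of 4 libraries, 1 for each gene and group, the highest or lowest library stood apart by Dixon's test in 3, where chance alone flags about 1 in 20. Aifm2 in NC had 1 library at 29.6 CPM, against 22.3 to 22.9 CPM in the other 3. Slc3a2 in NC had 1 library at 96.2 CPM, against 144 to 147 CPM in the other 3. Alox15 in the mCherry group had 1 library at 0.0633 CPM, which is 4 counts, against 0 in the other 3. With 3 libraries tied at 0, any count in the remaining library is flagged. The rate of 1 in 20 does not apply to this flag, which is not read as a result. The cause of these was not tested.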

How the results depend on the processing

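For single genes, 227 values under other settings and 185 with 1 library left out kept their direction and side of the threshold, while 11 and 12 no longer passed, 2 and 1 newly passed, and 6 and 2 turned direction. The cause of these changes was not tested, and the 8 turned values were not called. By library totals alone these were Lpcat3 (0.0264 for mCherry against NC, 0.0253 for the FGF23 variant group against mCherry, 0.0516 for the FGF23 variant group against NC), Gpx4 (0.0316 for the FGF23 variant group against mCherry), and Aifm2 and Dhodh (0.24 and 0.15 in variant kidneys against NC). With 1 library left out, Lpcat3 for mCherry against NC ranged from -0.2511 to 0.0331 (without mCherry replicate 3), and Aifm2 in variant kidneys against NC from -0.1364 to 0.0137 (without NC replicate 2). Scaling by library totals moved the median of all genes to 0.12, 0.21 and 0.34 for mCherry against NC, variant against mCherry and variant against NC. By it, 5828 genes were higher and 3958 lower, 4060 higher and 1035 lower, and 7829 higher and 2096 lower, in place of 5088 and 4859, 2199 and 2148, and 4123 and 3912.

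Members called with 1 library left out numbered 5 to 6 for mCherry against NC, 4 to 5 for the FGF23 variant group against mCherry and 4 to 6 for variant kidneys against NC. The replicate numbers were not shown to pair the samples, although 4 libraries per group cannot exclude it. Over 11564 genes, deviations of same-numbered libraries correlated at 0.0813 to 0.231 between the FGF23 variant group and the mCherry group. In the comparisons with NC they correlated at -0.389 to 0.101. Of 6 libraries with a shared number in the FGF23 variant and mCherry groups, 3 correlated best with their own number, and 0 did in the other comparisons. With the replicate number as a block, 3 members were called for the FGF23 variant group against mCherry in place of 5. Over all genes the block gave 1787 calls there in place of 4347, and 4723 in place of 8035 for variant kidneys against NC. The FGF23 variant group shares only 3 replicate numbers with each other group, so the block leaves fewer libraries to judge its differences by. Calls lost to that smaller base were not told apart from other losses. All genes called for the FGF23 variant group against mCherry also dropped to 2410, 2853 and 2718 without replicate 1, 2 and 5 of the FGF23 variant group. Calls lost with the block were Dhodh for mCherry against NC (adjusted p = 0.0561), Aifm2 and Acsl4 for the FGF23 variant group against mCherry (0.121 and 0.0957), and Gpx4 and Lpcat3 for variant kidneys against NC (0.112 each). Counts limit what can be said of Alox15, and of Ptgs2 in NC.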

Other observations

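Ratios of 2 members within a library do not depend on how libraries are scaled to each other. The ratio of Acsl4 to Gpx4 FPKM ranged over 0.0672 to 0.107 with the variant, 0.0758 to 0.135 in the mCherry group and 0.013 to 0.0264 in NC, so both injured groups were above NC in every library and overlapped each other. The ratio of Acsl4 to Lpcat3 was 0.452 to 0.656 with the variant, 0.569 to 0.889 in the mCherry group and 0.134 to 0.167 in NC, with the same overlap. The ratio of Gch1 to Dhodh was 0.402 to 0.631 with the variant, 1.32 to 2.32 in the mCherry group and 0.0519 to 0.0966 in NC, and the 3 groups did not overlap. These ratios were not tested, and each rests on the reads of both genes.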
